A study of Mus musculus with 12 samples.

Results

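The genes described here are Nsd1 and 7 other genes for enzymes assigned to lysine 36 of histone H3 (H3K36): Whsc1 and Whsc1l1, the older names of Nsd2 and Nsd3, and Setd2, Ash1l, Setd5, Setmar and Smyd2. They were chosen by name, and all 8 were found among the 34193 genes of the deposited table. The RNA came from the cerebral cortex of mice aged 8 weeks and was sequenced after removal of ribosomal RNA. Conditional knockout (cKO) mice were Nsd1 flx/flx with Nestin-cre +/-, and controls were Nsd1 flx/flx with Nestin-cre -/-, so every animal of both groups carried loxP-flanked Nsd1 and only the cKO carried Cre. Each group had 6 libraries, labelled as 3 males and 3 females. The comparison asks whether Nsd1 RNA is lower in the cKO and whether the genes of related enzymes are higher in its place. Nestin-Cre acts in neural progenitors, so blood vessels, meninges and microglia would largely keep an intact Nsd1, and their RNA can be part of each library. Recombination by cell type was not measured. The part of Nsd1 between the loxP sites is not named in the labels, and the values count reads over the whole gene, so they do not measure the extent of recombination.

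H3K36 methylation is written in steps. NSD1, NSD2, NSD3 and ASH1L add the first methyl groups up to the dimethyl state, and SETD2 travels with elongating RNA polymerase II and writes the trimethyl state over gene bodies. The PWWP domain of the DNA methyltransferase DNMT3A binds dimethylated and trimethylated H3K36, which links these marks to DNA methylation, and heterozygous loss of human NSD1 causes Sotos syndrome, an overgrowth condition. SETMAR and SMYD2 have also been described as writers of dimethylated H3K36, and the activity of SETD5 at this site is disputed.

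All these proteins share the SET domain, whose conserved asparagine-histidine-X-cysteine motif lies in the pocket for the methyl donor. The coding sequence around this motif is shown to make the relation between the members visible and to show how different their reads are. The capitals mark the 4 codons of the motif, and the sequences are from the GENCODE annotation of GRCm38, each from the transcript with the longest reading frame.
Nsd1: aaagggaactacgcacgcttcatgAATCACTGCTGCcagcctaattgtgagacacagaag
Whsc1: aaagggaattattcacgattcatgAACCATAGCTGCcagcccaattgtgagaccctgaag
Whsc1l1: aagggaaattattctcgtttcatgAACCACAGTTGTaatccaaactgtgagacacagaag
Setd2: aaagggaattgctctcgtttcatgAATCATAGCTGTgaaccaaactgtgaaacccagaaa
Ash1l: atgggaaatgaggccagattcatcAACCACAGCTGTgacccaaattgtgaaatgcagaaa
Setd5: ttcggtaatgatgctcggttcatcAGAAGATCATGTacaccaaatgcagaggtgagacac
Setmar: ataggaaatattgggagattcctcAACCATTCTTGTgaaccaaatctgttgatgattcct
Smyd2: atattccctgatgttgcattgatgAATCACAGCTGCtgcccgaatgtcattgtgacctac

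In Nsd1 the capitals encode asparagine, histidine, cysteine and cysteine, in Setd5 arginine, arginine, serine and cysteine, and in the other 6 members asparagine, histidine, serine and cysteine. The Nsd1 window lies in exon 20, at chr13:55302863-55302922 on the plus strand of GRCm38. Of its 60 bases, 83.3% were identical in Whsc1, 75.0% in Whsc1l1 and in Setd2, 66.7% in Ash1l, 45% in Setd5 and in Setmar, and 43.3% in Smyd2. The Setd5 window runs over the junction of exons 8 and 9, and the Smyd2 window over that of exons 6 and 7. Over whole transcripts, the longest run of identical bases that Nsd1 shares with another member, on either strand, was 30 bases, with Ash1l, and it was 23 with Whsc1 and 20 with Whsc1l1. The longest between any pair was 31 bases, between Setd2 and Setd5. No source used here names the read length.

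Depth, summed over genes from the whole reads behind the deposited values, was 14583163 to 26975576 reads in cKO libraries and 10510053 to 21096808 in controls. Library numbers are those of the table's columns. Columns 1 to 3 of each genotype hold reads of 4 Y-linked genes above a summed value of 100 and columns 4 to 6 do not. That split disagrees with the labelled sex of the same number in 8 of 12 columns, so a column was tied to its genotype only. The share of mitochondrial ribosomal RNA was highest in control libraries 4 and 5, at 14.2% and 11.5%, and lay between 1.46% and 6.00% in the other 10 libraries. The labels call the libraries of a genotype biological replicates without naming the animals, so the p-values rest on the spread between libraries, part of which may be technical.

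Nsd1, the targeted gene, had the largest difference between genotypes among the 8 members, but it did not pass the test over all genes. Its level in cKO libraries was lowest at 2853, with a median of 3247 and a highest value of 3617 normalised reads, against 3214, 4437 and 5269 in controls. All 6 cKO libraries lay below the control median, and control libraries 3 and 6 lay inside the cKO range, so the groups overlapped. Groups without overlap and lower in the cKO were found for 0.194% of all tested genes and for none of the 8 members. Nsd1 averaged 3251 ± 299 normalised reads in the cKO and 4235 ± 850 in controls (SD, n = 6 each), a ratio of 0.768. On the scale of log2(value + 1), the fold change was -0.36 (SE 0.12), with a 95% interval of -0.62 to -0.10 (limma, unadjusted p = 0.00993, and adjusted p = 0.383 over 14397 tested genes). In that test 0.834% of all genes were called, 0.764% as higher and 0.0695% as lower in the cKO, and none of the 8 members was among them. Nsd1 alone of the 8 had an unadjusted limma p under 0.05, which 9.73% of all tested genes had. In bulk tissue, fewer cells that express a gene and less RNA per cell cannot be told apart.

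**Figure D1:**
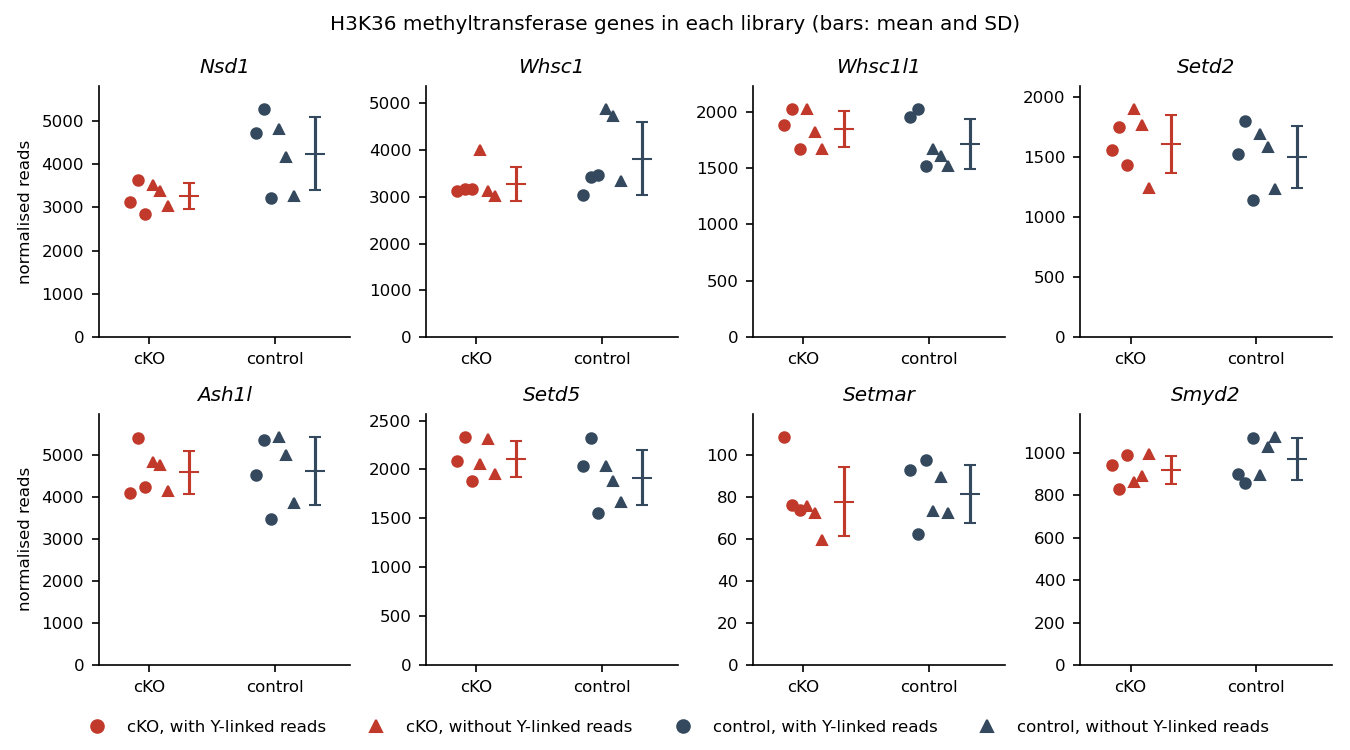
Normalised reads (y axis, from 0) of the 8 H3K36 methyltransferase genes in each cKO and control library. Points are libraries, circles with and triangles without Y-linked reads, and bars give the mean and SD of the 6 libraries. Nsd1 lies between 2853 and 3617 in the cKO and between 3214 and 5269 in controls, while the other genes overlap more widely.

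Of the 2 closest relatives of Nsd1, neither was called. Whsc1 encodes NSD2, an enzyme of the dimethyl state whose overactivity is known from multiple myeloma. It ran from 3020 over a median of 3146 to 4003 normalised reads in cKO libraries and from 3044 over 3447 to 4878 in controls. A single cKO library, number 4, stood high at 4003 normalised reads, as did controls 4 and 5 at 4878 and 4734, and the other 9 libraries lay between 3020 and 3470. The log2 fold change of Whsc1 was -0.21, in the direction of Nsd1 (SE 0.11, 95% interval -0.43 to 0.02, limma adjusted p = 0.525). Without control libraries 4 and 5, which also had the largest share of mitochondrial ribosomal RNA, it was -0.04 (limma adjusted p = 0.993). The part of that RNA in the difference was not tested.

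Whsc1l1 encodes NSD3, which has a long form with the SET domain and a short form without it, and the values do not separate the forms. It stood at 1665, with a median of 1850 and a maximum of 2025 normalised reads in cKO libraries, against 1516, 1640 and 2025 in controls. All 6 cKO libraries lay above the control median, and controls 1 and 4 lay inside the cKO range while control 2 matched its upper end. Its difference on the log2 scale was 0.11, with a 95% interval of -0.08 to 0.30 (SE 0.09, limma adjusted p = 0.635).

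The genes of the other H3K36 methyltransferases did not pass the test either. Ash1l, the mammalian counterpart of a Drosophila trithorax group gene, ranged from 4112 over a median of 4514 to 5420 normalised reads in the cKO and from 3478 over 4776 to 5447 in controls. The cKO values lay wholly inside the control range, and its log2 fold change came to 0.0049, with an SE of 0.12 (limma adjusted p = 0.991), and its sign changed with quantile normalisation, edgeR, DESeq2 and removal of the length trend described later. Setd2, the gene of the enzyme that writes the trimethyl state, ranged from 1243 over 1654 to 1898 normalised reads in the cKO and from 1141 over 1554 to 1797 in controls, and its difference of 0.11 on the log2 scale had an SE of 0.13 (limma adjusted p = 0.737). Setd5, whose mutation in humans causes intellectual disability, ranged from 1886 over 2068 to 2336 normalised reads in the cKO and from 1557 over 1957 to 2322 in controls. Its log2 fold change was 0.14, with an SE of 0.10 (limma adjusted p = 0.595), and ran from 0.07 to 0.20 with single libraries left out.

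Setmar and Smyd2 have short transcripts. Setmar, which in anthropoid primates is fused to a transposase, was the weakest member, with 39 to 144 reads per library before scaling. It ranged from 59.7 over 74.9 to 109 normalised reads in the cKO and from 62.5 over 81.4 to 98.1 in controls (log2 fold change -0.07, SE 0.15, limma adjusted p = 0.864), a sign that changed without control libraries 4 and 5. Smyd2, which also methylates p53 and other proteins outside chromatin, ranged from 833 over 918 to 996 normalised reads in the cKO and from 857 over 965 to 1078 in controls. Its log2 fold change was -0.08 (SE 0.08, limma adjusted p = 0.723).

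The intervals show how large a rise of each other member these libraries leave room for. As a percentage of the control level, the upper 95% limit was 30.0% higher for Setd2, 27.8% for Setd5, 23.4% for Whsc1l1, 19.2% for Ash1l, 18.2% for Setmar, 7.36% for Smyd2 and 1.45% for Whsc1. These limits rest in part on single libraries: that of Whsc1 ran from -3.03% to 5.60% with single libraries left out and was 11.7% without control libraries 4 and 5. Without that pair of controls the limits were 43.6% for Setd2, 35.6% for Setd5, 31.6% for Ash1l, 29.1% for Setmar, 26.9% for Whsc1l1 and 8.14% for Smyd2, and that of Nsd1 was 1.94%, above 0. With all libraries and the length trend described later removed, the upper limit of Setd2 on the log2 scale was 0.22, against 0.38 in the comparison as reported. It was also lower for Setd5 (0.23, against 0.35), Whsc1l1 (0.12, against 0.30), Ash1l (0.07, against 0.25) and Whsc1 (-0.05, against 0.02). For Setmar (0.29, against 0.24) and Smyd2 (0.12, against 0.10) it was higher. In the comparison as reported, the lower limits ran from -25.9% for Whsc1 to -4.70% for Setd5. Fold changes were above 0 for 4 of the 7 other members and below 0 for 3, and over all tested genes 7179 of 14397 were above 0. The median log2 fold change of the 8 members was -0.03, against -0.00069 for all tested genes. The authors' deposited table gives adjusted p of 0.216 for Nsd1 and 0.637 for Whsc1, with log2 fold changes of -0.38 and -0.21, and adjusted p of 0.793 to 0.993 for the other 6 members. There, 0.906% of genes have an adjusted p under 0.05.

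**Figure D2:**
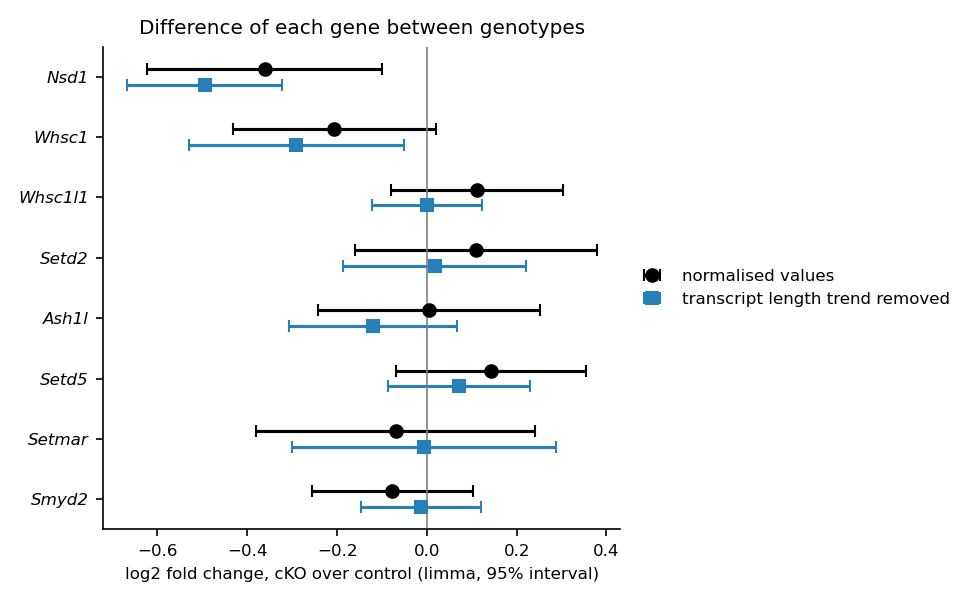
Log2 fold change of each gene, cKO over control (x axis), with its 95% limma interval, from the normalised values (black circles) and after removal of each library's trend with transcript length (blue squares). The Nsd1 interval lies below 0 in both, and that of Whsc1 crosses 0 in the first and ends at -0.05 in the second.

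Within each genotype, Nsd1 varied from library to library together with Ash1l, Setd2, Setd5 and Whsc1l1. Controls 2 and 4 had the highest and controls 3 and 6 the lowest levels among controls of Nsd1, Ash1l, Setd2 and Setd5 alike. The Pearson correlation of log2 values with Nsd1 over the 6 controls was 0.98 for Setd5, 0.96 for Setd2, 0.91 for Ash1l and 0.86 for Whsc1l1, and over the 6 cKO libraries it was 0.81, 0.83, 0.89 and 0.89 in the same order of genes. For Whsc1 it was 0.47 in the cKO and 0.19 in controls. For Smyd2, with a longest transcript of 1.71 kb against 12.8 kb for Nsd1, it was -0.97 in the cKO and -0.95 in controls. These correlations are descriptions of 6 libraries each, whose points share library depth and the length trend, and no p is given.

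Relative to each of these 4 genes in the same library, the level of Nsd1 did not overlap between the genotypes, while that of Nsd1 itself did. These ratios were formed after the values had been seen and are given without a test. The ratio of Nsd1 to Ash1l ran from 0.667 over a median of 0.717 to 0.757 in the cKO, against 0.830, 0.902 and 1.04 in controls. The ratio to Setd5 ran from 1.46 over 1.53 to 1.71 in the cKO, against 1.96, 2.24 and 2.35 in controls. Every cKO library lay below every control library in both, and the ratio of the group means was 0.774 and 0.705.

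The same held against Setd2 and Whsc1l1. Nsd1 over Setd2 ran from 1.85 over 1.99 to 2.44 in the cKO and from 2.63 over 2.83 to 3.09 in controls, and Nsd1 over Whsc1l1 from 1.65 over 1.76 to 1.86 in the cKO and from 2.12 over 2.50 to 2.87 in controls. Of the 14396 tested genes other than the partner, Nsd1 included and each set over it, the share with every cKO library below every control was 0.0625% for Ash1l, 0.25% for Setd5, 0.0764% for Setd2 and 0.118% for Whsc1l1. It was 0.0347% for Whsc1, 0.0556% for Setmar and 0.118% for Smyd2. The groups overlapped for the ratio of Nsd1 to Whsc1, at 0.878 over a median of 1.00 to 1.14 in the cKO and 0.880 over 0.980 to 1.55 in controls. Controls 1 and 2 stood at 1.55 and 1.54, and the other 4 controls lay between 0.880 and 0.983, inside the cKO range. The groups also overlapped for the ratios to Setmar and Smyd2. A ratio shows unequal change and not which of its genes changed.

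**Figure D3:**
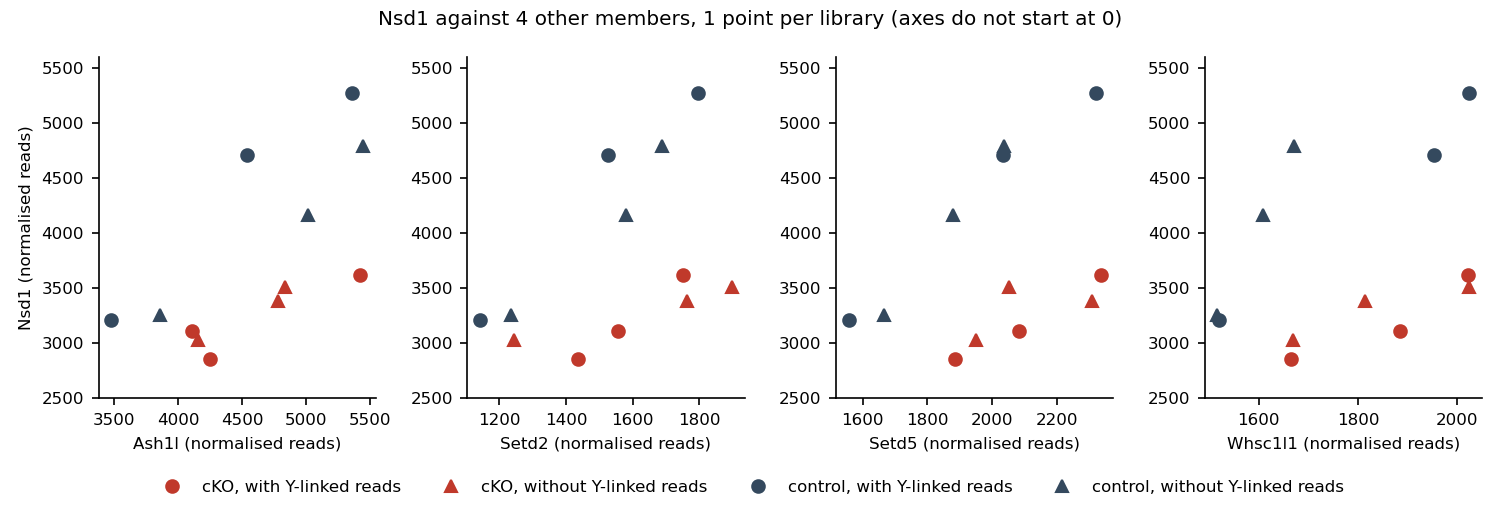
Nsd1 against Ash1l, Setd2, Setd5 and Whsc1l1 in normalised reads, 1 point per library, with axes that do not start at 0. In each panel Nsd1 tends to be higher where the other gene is higher within each genotype, and the 6 cKO points form a band below the 6 control points.

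**Figure D4:**
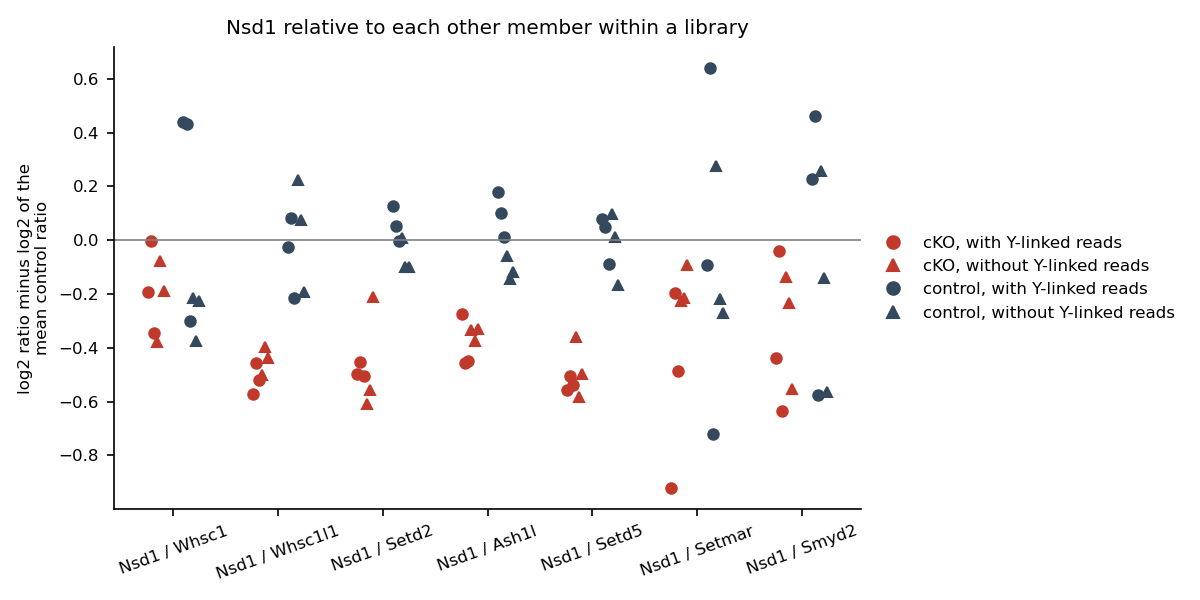
Log2 of the ratio of Nsd1 to each other member in every library, after subtraction of the log2 of the mean control ratio (y axis). The genotypes do not overlap for Whsc1l1, Setd2, Ash1l and Setd5 and overlap for Whsc1, Setmar and Smyd2.

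The libraries differed in how their values depended on transcript length over all genes. The slope of the log2 deviation with log2 transcript length lay between -0.03 and 0.11 in the cKO and between -0.13 and 0.12 in controls, lowest in control libraries 3, 5 and 6 (-0.13, -0.11 and -0.08). It was below 0 in cKO libraries 3 and 6 and in control libraries 3, 4, 5 and 6, so it was not balanced between the genotypes. Removal of this trend therefore also moves the genotype difference of long genes. Whether the slope goes with genotype was not tested. After that linear trend had been removed from each library, log2 values of Nsd1 ran from 11.53 over 11.60 to 11.63 in the cKO and from 11.82 over 12.13 to 12.31 in controls. Every cKO library then lay below every control library, as for 0.304% of the 14134 genes with a length. The SD of these values within a genotype was 0.03 in the cKO and 0.19 in controls, against 0.13 and 0.30 before. The limma fit on these values assumes an equal spread in both genotypes, which these SDs do not show. With the trend removed Nsd1 was called lower in the cKO, by -0.49 with a 95% interval of -0.67 to -0.32 (SE 0.08, limma adjusted p = 0.00409). The move from -0.36 to -0.49 comes from the difference in slopes between the groups. Under this setting 0.92% of all genes were called in either direction and 0.092% as lower.

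None of the other 7 members was called under the length setting. Whsc1 had a log2 fold change of -0.29 (SE 0.11, unadjusted p = 0.0203, limma adjusted p = 0.452), and of -0.11 when control libraries 4 and 5 were left out as well. The values were, for Ash1l, -0.12 (limma adjusted p = 0.609) and, for Setd5, 0.07 (limma adjusted p = 0.726). Setd2, Whsc1l1, Setmar and Smyd2 lay between -0.01 and 0.02 on the same scale. Nsd1 kept its limma call with the length trend removed whichever single library was left out (log2 fold change -0.56 to -0.45, adjusted p 0.000675 to 0.0141), and without control libraries 4 and 5 (-0.39, limma adjusted p = 0.0310, with 0.0567% of all genes called lower), both settings chosen after the data had been seen. With the length trend kept, leaving out control libraries 4 and 5 gave -0.29 for Nsd1 (limma adjusted p = 0.993).

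**Figure D5:**
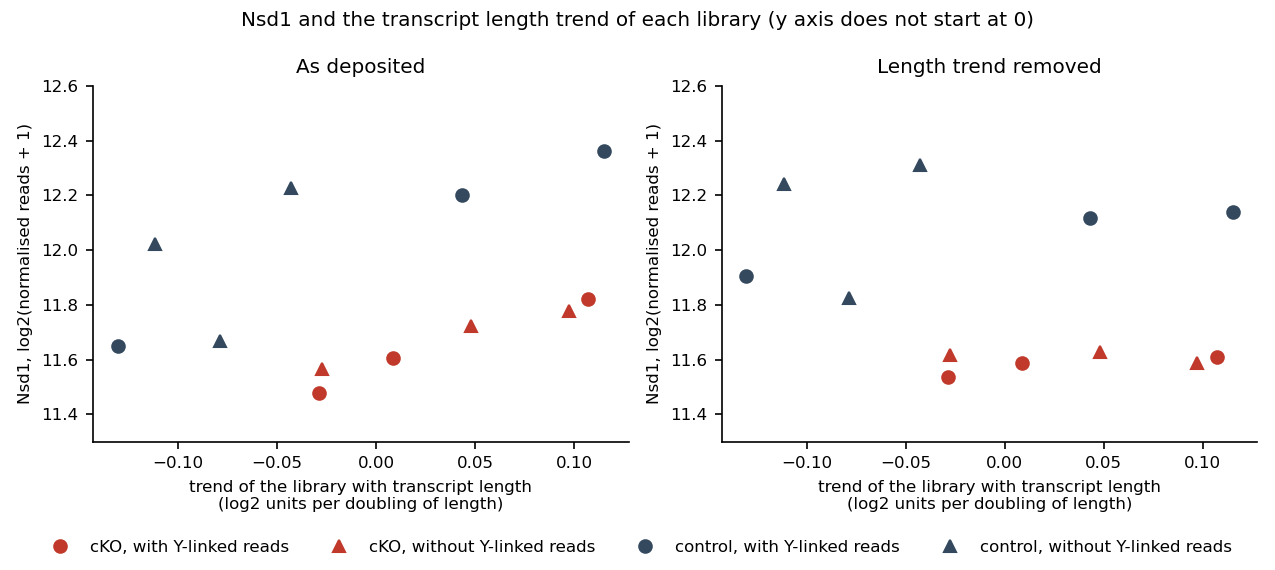
Log2 value of Nsd1 in each library (y axis, not from 0) against that library's trend with transcript length over all tested genes (x axis), as deposited on the left and after removal of the trend on the right. The cKO points lie between 11.53 and 11.63 on the right, below all controls, the lowest of which is at 11.82.

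Within the sets of libraries with and without Y-linked reads, the log2 fold change of Nsd1 was -0.44 and -0.28, and with the length trend removed -0.48 and -0.51. For Whsc1 it was -0.07 with and -0.34 without Y-linked reads, and for Whsc1l1 0.03 with and 0.20 without. The other 5 members lay between -0.03 and 0.11 in the first set and between -0.18 and 0.18 in the second. No member was called within either set, where 0.25% and 0.493% of all genes were. A test of the difference between the sets called no member (limma adjusted p from 0.647 for Whsc1 to 0.996 for Setd2) and 0.0% of all genes, at an unadjusted p under 0.05 for 0 of the 8 members. Without control libraries 4 and 5 the second set holds control library 6 alone against 3 cKO libraries, and Nsd1 then differed by 0.02 on the log2 scale, with the lone control assumed to vary like the others. With all libraries and the length trend removed, Whsc1 stood at -0.09 with and -0.49 without Y-linked reads, and Ash1l at 0.02 and -0.26. In the set without Y-linked reads the fall of Whsc1 was thus close to that of Nsd1 (limma adjusted p = 0.085 and 0.055). Whsc1l1, Setd2, Setd5, Setmar and Smyd2 lay between -0.01 and 0.09 in the first set and between -0.07 and 0.06 in the second.

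Levels of different genes were compared as normalised reads per kb of merged exons, with all annotated exons of a gene joined. On this scale Smyd2 stood highest, at 339 ± 25.0 in the cKO and 358 ± 36.2 in controls, followed by Ash1l at 309 ± 34.6 and 311 ± 54.6 (SD, n = 6 each). Smyd2 lay above Ash1l in 8 of 12 libraries, so the order of these neighbours did not hold within their spread. Nsd1 came next at 186 ± 17.1 per kb in the cKO and 242 ± 48.6 in controls, beside Whsc1 at 194 ± 21.7 and 227 ± 46.6. Nsd1 lay above Whsc1 in 4 of 12 libraries, and the pair had overlapping ranges.

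Setd2 followed at 149 ± 22.6 per kb in the cKO and 139 ± 23.9 in controls, below Whsc1 in each of the 12 libraries. Setd5 stood at 115 ± 10.1 and 104 ± 15.2 per kb and Whsc1l1 at 112 ± 9.75 and 104 ± 13.4, with Setd5 above in 7 of 12 libraries. Setmar was lowest at 44.1 ± 9.31 in the cKO and 46.2 ± 7.92 in controls. This order rests on the length chosen. With the longest transcript Nsd1 took rank 5 of the 8, behind Whsc1, Ash1l, Setd5 and Smyd2 by the mean of all 12 libraries. Its order against Setd5 on that scale differed by genotype, with Nsd1 above Setd5 in 0 of 6 cKO libraries and in 6 of 6 controls.

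As a share of the summed level per kb of the 8 genes, Nsd1 made up 12.8 ± 0.612% in the cKO and 15.7 ± 2.16% in controls (SD, n = 6 each). The highest cKO share, 13.6% in library 2, lay just above the lowest controls, at 13.5% in libraries 3 and 6. The summed level of the other 7 genes was 1263 ± 58.6 per kb in the cKO, with a range of 1183 to 1336, and 1289 ± 99.8 in controls, with a range of 1174 to 1399, so the cKO range lay inside that of the controls. The difference of cKO minus control was -56.3 per kb for Nsd1 itself and -26.8 per kb for the sum of the others. Among those others Whsc1 had the largest gap, at 194 per kb in the cKO and 227 in controls. As given above, its difference shrank without control libraries 4 and 5. The means of Setd2, Setd5 and Whsc1l1 were higher in the cKO, so the sum does not describe each gene.

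The labels' protocols name a directional kit, but no source used here says how the counting treated strand. Some reads of these genes may therefore belong to neighbours on the opposite strand. Exons of Ash1l and Dap3 overlap by 352 bases in the GRCm38 annotation and those of Whsc1 and Whsc2, the older name of Nelfa, by 60. Dap3 averaged 1138 ± 41.8 normalised reads in the cKO and 1129 ± 119 in controls, and Whsc2 252 ± 24.3 in the cKO and 246 ± 41.1 in controls (SD, n = 6 each; limma adjusted p = 0.946 and 0.880). Smyd2 shares 814 exon bases with an antisense gene, Gm37422, that was not matched to the table by name.

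The genes whose log2 values over the 12 libraries were most like those of Nsd1, among 10368 genes with a mean of at least 100, were Mllt3, Spnb1, Map3k9, Maf and Cdon. Mllt3 encodes a partner of the transcription elongation machinery, Spnb1 a beta spectrin, Map3k9 a protein kinase, Maf a transcription factor and Cdon a cell surface co-receptor. Their Pearson correlations with Nsd1 were 0.88, 0.87, 0.85, 0.85 and 0.84, as descriptions over libraries of both genotypes, and the median gene had 0.0071. Their longest transcripts measured 4.56 to 10.4 kb, against a median of 3.47 kb for tested genes. With the length trend removed, their correlations with Nsd1 were 0.89, 0.88, 0.67, 0.84 and 0.86 in the same order. Ash1l came at rank 107 with a correlation of 0.68, Setd2 at rank 769 with 0.50 and Whsc1 at rank 1023 with 0.45. With the length trend removed, these members had correlations of 0.67, 0.28 and 0.62 in that order.

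The other genes of the pathway, from lists chosen with earlier results of these data known, had no called member in the comparison as reported. In that comparison 0.834% of all tested genes were called, a share at which lists of this size can hold none. Of 8 H3K36 demethylases tested, 3 lay above 0 and the median log2 fold change was -0.01. The most abundant, Kdm2a, which acts on dimethylated H3K36 and binds CpG islands, averaged 1906 ± 214 normalised reads in the cKO and 1733 ± 240 in controls (limma adjusted p = 0.604), and Kdm4b, which acts on trimethylated H3K9 and H3K36, 1073 ± 159 and 1053 ± 182 (SD, n = 6 each; limma adjusted p = 0.937). Of 20 tested readers of H3K36 methylation, 13 lay above 0, with a median of 0.07. Glyr1, a nucleosome-binding protein with a PWWP domain, averaged 3385 ± 124 normalised reads in the cKO and 3161 ± 224 in controls, and Morf4l1, a chromodomain protein of acetyltransferase and deacetylase complexes that also activates ASH1L, 3065 ± 503 and 3248 ± 328 (limma adjusted p = 0.595 and 0.704).

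Partners of these enzymes in transcription elongation and in complexes numbered 12, of which 10 lay above 0, with a median log2 fold change of 0.14, or 0.09 with the length trend removed. Supt6h, the elongation factor SPT6 that links SETD2 to the polymerase, averaged 3461 ± 500 normalised reads in the cKO and 2966 ± 507 in controls (limma adjusted p = 0.527), and Hnrnpl, an RNA-binding protein described as a partner of SETD2, 3227 ± 112 and 3309 ± 180 (SD, n = 6 each; limma adjusted p = 0.848). The 22 methyltransferases of other histone sites had a median of 0.05, with 16 above 0. Their most abundant members were Setd7, at 4720 ± 408 normalised reads in the cKO and 4441 ± 510 in controls, and Mll2, a methyltransferase of lysine 4 of histone H3, at 4228 ± 787 and 4249 ± 1098 (limma adjusted p = 0.697 and 0.975). Among 14 other SET domain genes, 10 lay above 0, with a median of 0.07. The most abundant were Setd3, an actin histidine methyltransferase, at 2286 ± 215 normalised reads in the cKO and 2390 ± 230 in controls, and Prdm16, a transcription regulator, at 1209 ± 237 and 1435 ± 265 (limma adjusted p = 0.762 and 0.527).

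Markers of the cortex were expressed in every library. The summed level of 12 markers of cortical excitatory neurons ran from 96590 to 116913 normalised reads in the cKO and from 110341 to 127172 in controls, with no called member and a median log2 fold change of -0.03. Camk2a, a kinase of excitatory synapses, made up most of that sum, at 65809 ± 7128 normalised reads in the cKO and 74145 ± 11338 in controls (SD, n = 6 each). Markers of cells outside the neural lineage were expressed in both groups. The 8 microglia markers summed to 4352 to 5371 normalised reads in the cKO and 4274 to 5432 in controls, and the 8 vascular markers to 2760 to 3462 and 2899 to 3514. No microglial or vascular marker was at 0 throughout and none was called, with median log2 fold changes of 0.0029 and -0.02. Median log2 fold changes were 0.08 for pan-neuronal, 0.0093 for interneuron, 0.04 for astrocyte and -0.01 for oligodendrocyte markers. Aqp4 was the only marker called, higher in the cKO, in a comparison that called 0.834% of all tested genes. The part of cell makeup in the level of Nsd1 was not tested.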

How the data were processed

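The table was deposited by the authors with 1 column per library and holds, per the file headers, DESeq2-normalised counts, a signal in reads scaled between libraries. Whole reads were recovered from it: 100% of values above 0 were whole multiples of a step per library, within 0.01 reads. It also holds the authors' DESeq2 log2 fold change, its standard error, a score (the Wald statistic) and p-values as deposited. Per the submitters' processing notes, the build was mm9 and the tools included STAR, Bowtie, bedtools and Trim Galore, with neither versions nor roles, and the labels' protocols name 250 ng of total RNA and a directional kit.

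Columns were assigned to a genotype only. The test was limma 3.58.1 with an intensity trend on log2(value + 1), with genotype and a term for Y-linked reads, over genes averaging 10 normalised reads or more, with a call where the Benjamini-Hochberg adjusted p was under 0.05. All 8 members passed this filter. Alternatives included edgeR 4.0.16 and DESeq2 1.42.0 on the recovered reads, in R 4.3.3. The main fit, the length fit, edgeR, DESeq2 and the difference between sets were also run on simulated counts. Those counts had a fixed dispersion, equal in both groups, and no length trend, unlike these libraries. The other alternatives were not simulated. No pair of libraries within a genotype was a duplicate (chi-square of 7.22 to 170 for each degree of freedom, over 30 pairs). Lengths were matched by symbol or unique synonym for 98.2% of tested genes, and coordinates are those of GRCm38 and not of the authors' build. The members, lists and tests were chosen with earlier results of these data known. Named genes were the 8 members, called members of lists, the 2 most abundant genes of each pathway list and the 5 genes most like Nsd1. A result of an alternative setting for a gene outside the 8 members is not reported here.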

Additional observations from a re-analysis of the deposited data

Results flagged for a closer look

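In 4 of 32 groups of 6 values, a library stood far from the other 5 by Dixon's gap ratio at its 95% critical value, which chance alone gives in about 1 in 20 groups. Whsc1 in cKO library 4 stood at 4003 normalised reads, against 3020 to 3175 in the other cKO libraries. Setmar in cKO library 1 stood at 109 normalised reads, against 59.7 to 76.5. The ratio of Nsd1 to Setd2 was 2.44 in cKO library 6, against 1.85 to 2.07 in the other cKO libraries, and the ratio of Nsd1 to Setd5 was 1.71 in cKO library 4, against 1.46 to 1.55. Both ratios still lay below every control.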

How the results depend on the processing

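Limits: no member was called in the comparison as reported, and the count of called genes, 120, was 97 to 123 with single libraries left out. Nsd1 kept its direction in all 24 alternatives and was called in 2: with the length trend removed (-0.49) and with that trend removed and control libraries 4 and 5 left out (-0.39). The other 7 members were called in none of the 24. Not counted among the 24 are the 12 fits with the length trend removed and a single library left out, each of which also called Nsd1. The column numbers were not taken to pair the libraries: correlations of deviations across genes were 0.34, 0.50, 0.35, 0.0947, 0.0911 and 0.26 for numbers 1 to 6, so that 2 were not over 0.1. The best-matching control had the same number for 4 of 6 cKO libraries, a hint from the data and not the design. With the column number as a replicate block, Nsd1 had a log2 fold change of -0.36 and a limma adjusted p of 0.093, and 118 genes were called. With single libraries left out, Nsd1 ran from -0.45 to -0.29 and Ash1l from -0.0752 to 0.0634, Whsc1 from -0.27 to -0.15, Whsc1l1 from 0.06 to 0.16, Setd2 from 0.03 to 0.19, Setd5 from 0.07 to 0.20, Setmar from -0.17 to -0.01 and Smyd2 from -0.11 to -0.04. Ash1l turned negative with quantile normalisation (-0.0196), edgeR (-0.0087), DESeq2 (-0.0062) and the length trend removed (-0.12). Setmar turned positive without control libraries 4 and 5 (0.00047, and 0.0483 with the length trend removed too). Within sets, removing the length trend turned Whsc1l1 with Y-linked reads (-0.0059), Setd2 without them (-0.0457) and the differences between sets of Nsd1 (0.0374), Setd5 (0.0304) and Setd2 (0.13). Leaving out control libraries 4 and 5 turned the set without Y-linked reads for Nsd1 (0.0194), Ash1l (0.25) and Whsc1 (0.0080) and the differences of Ash1l (-0.19) and Whsc1 (-0.0768). The causes were not tested.

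By longest transcript, ranks per kb were 5 for Nsd1, 2 for Whsc1, 6 for Setd2, 3 for Ash1l and 4 for Setd5 over all 12 libraries, although Nsd1 lay above Setd5 in 6 of 6 controls, and by gene span 1 for Whsc1, 6 for Setd2, 4 for Setd5 and 5 for Smyd2. The share of Nsd1 was 10.9% in the cKO and 13.4% in controls by longest transcript, and 18.4% and 22.3% with reads not divided by length.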
